A study of Homo sapiens with 6 samples.

Results

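The 10 genes described here are the transcriptional output arm of the Hippo pathway in human embryonic stem cells (hESCs) and in neuromesodermal progenitor-like (NMP-L) cells derived from them. They were chosen by symbol from the 27672 genes of the deposited table and comprise the coactivator genes YAP1 and WWTR1 (which encodes TAZ), the 4 TEAD genes, and the target genes CTGF (now CCN2), CYR61 (now CCN1), AMOTL2 and LATS2. All 10 were found in the table and all 10 passed the expression filter of the test. Polyadenylated RNA was sequenced from 3 biological replicates of undifferentiated H9 hESCs (day 0) and 3 of NMP-L cells (day 3). H9 is a single established hESC line. Per the labels, the hESCs were untreated and grew without feeders on fibronectin in DEF medium, to which bFGF (at 30 ng/ml) and the BMP inhibitor Noggin (at 10 ng/ml) were added. The NMP-L cells had spent 3 days in a medium named Neurobasal in one label and N2/B27 in another. It held CHIR99021 at 3 µM, which activates Wnt signalling by inhibiting GSK3, and bFGF at 20 ng/ml. The study's methods also describe BMP and TGFβ inhibitors in the medium over a span of days that includes day 3. Noggin is not among the labels of the NMP-L libraries, and the methods do not describe these RNA libraries. Whether these cells received the inhibitors is not known. The table marks both groups as wild type. The libraries are bulk RNA, so that fewer cells of a type and less RNA per cell cannot be told apart.

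In the Hippo pathway the kinases encoded by STK3 and STK4, with the scaffold SAV1, activate the LATS kinases with their MOB1 partners. LATS kinases phosphorylate YAP and TAZ, which are then held in the cytoplasm or degraded. Unphosphorylated YAP and TAZ enter the nucleus, bind the TEAD DNA-binding proteins and switch on genes such as CTGF and CYR61. The pathway senses cell density, cell shape and tension of the actin cytoskeleton, and in the early embryo it separates outer from inner cells. AMOTL2 and LATS2 are both targets and inhibitors of YAP and so form a negative feedback. RNA levels measure neither the phosphorylation nor the location of YAP and TAZ.

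The TEAD proteins recognise the core motif GGAATG, read as CATTCC on the other strand. The promoters below are shown because they hold this core within the 250 bases before a transcription start. They are RefSeq sequences of GRCh38.p14 on the strand of the gene, 5′ to 3′, with each core in capitals. Windows were matched for 7 of the 10 genes, with 10 windows in all since some genes have more than 1 start, and 3 of the 10 windows, each of a different gene, held the core. Those of TEAD1, TEAD4 and CYR61 were not analysed here. The CTGF window (chr6:131951373-131951622, minus strand) held 3 cores, whose first bases lie 169, 104 and 95 bases before the start. One of the AMOTL2 windows (chr3:134374448-134374697, minus strand) and the YAP1 window (chr11:102110197-102110446, plus strand) held 1 core each, 69 and 162 bases before the start.
CTGF: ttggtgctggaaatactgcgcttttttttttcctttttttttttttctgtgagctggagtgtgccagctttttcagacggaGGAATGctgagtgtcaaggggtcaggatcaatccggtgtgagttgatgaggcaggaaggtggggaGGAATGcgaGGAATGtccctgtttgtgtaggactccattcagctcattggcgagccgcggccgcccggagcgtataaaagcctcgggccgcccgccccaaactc
AMOTL2: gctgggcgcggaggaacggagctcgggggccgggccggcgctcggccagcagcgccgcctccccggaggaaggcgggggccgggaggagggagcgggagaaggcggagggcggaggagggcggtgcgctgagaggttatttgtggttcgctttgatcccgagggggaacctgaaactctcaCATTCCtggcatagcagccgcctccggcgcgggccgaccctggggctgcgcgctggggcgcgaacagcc
YAP1: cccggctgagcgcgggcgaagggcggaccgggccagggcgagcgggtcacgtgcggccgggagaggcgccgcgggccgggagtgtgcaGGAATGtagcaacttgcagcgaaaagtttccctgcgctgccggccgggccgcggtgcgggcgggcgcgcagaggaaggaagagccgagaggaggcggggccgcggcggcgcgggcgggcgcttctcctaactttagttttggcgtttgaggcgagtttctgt

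Among all 35116 RefSeq windows of the same length, 11.9% held at least 1 core and 29 windows (0.0826%) held 3 or more. The core was not among the letters of the WWTR1, TEAD2, TEAD3 and LATS2 windows. Of the genes with a core, CTGF passed the test below while AMOTL2 and YAP1 did not. Of those without, TEAD2, TEAD3 and LATS2 passed while WWTR1 did not. The AP-1 motif TGANTCA, which is in 6.57% of all windows, and the CArG box bound by SRF, which is in 1.16%, were found in 0 of the 10 windows. A match describes the letters of a window and is not evidence of binding in these cells.

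The libraries held between 19454543 and 23036426 expected counts, and the values below are CPM, the counts of a gene relative to the library total, scaled by TMM, which sets the bulk of genes equal between libraries. The labels were checked on the genes fixed for this purpose. NANOG, a pluripotency factor, had 86.4 to 97.7 CPM in hESCs and 15.3 to 15.8 CPM in NMP-L cells, and POU5F1, whose counts may be shared with its pseudogenes, had a log2 fold change of -0.92. The mesodermal factor T and the caudal homeobox gene CDX2, with at most 2 counts in any hESC library, had 14.0 to 26.3 CPM and 15.5 to 25.4 CPM in NMP-L cells. Of all 15517 genes tested with edgeR's quasi-likelihood test, 55.8% differed between NMP-L cells and hESCs at an adjusted p under 0.05, 29.1% higher and 26.7% lower in NMP-L cells. This large background is the share against which the counts of genes below are to be read. The titles call the replicates biological, and the study's methods give separate experiments for its ChIP-seq and ATAC-seq replicates, but they do not describe these RNA libraries. The p-values measure only the spread between these libraries, which may be technical. Long and short transcripts were recovered unevenly among the libraries of both groups. Across 15490 genes, the deviation of hESC replicate 2 from the other hESC libraries had a Spearman correlation of -0.37 with effective transcript length, against 0.29 for hESC replicate 1 and 0.05 for replicate 3. The same correlation among the NMP-L libraries was -0.19, -0.11 and 0.26 for replicates 1, 2 and 3. The second hESC replicate was the lowest hESC library for 7 of the 10 genes. The results are therefore also given without it where that changes a call.

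Of the 10 genes, 7 differed between the groups, 1 higher (TEAD1) and 6 lower (CYR61, CTGF, TEAD2, TEAD4, LATS2 and TEAD3) in NMP-L cells. Over all genes tested, 55.8% differed, 29.1% higher and 26.7% lower, as above. Whether 7 of 10 departs from the 55.8% was not tested. The median log2 fold change was -0.56 over the 10 genes and 0.03 over all genes tested. Of the 10 genes, 2 changed by at least 2-fold, both lower (CYR61 and CTGF), against 9.18% of all genes at least 2-fold lower, 9.38% at least 2-fold higher and 18.6% in either direction. TEAD2 and TEAD4 lay just short of 2-fold, and 4 of the 10 were at least 2-fold lower without hESC replicate 1 (TEAD2 at -1.07 and TEAD4 at -1.03), as with upper-quartile scaling and relative to HPRT1 counts. Every other alternative gave 2 or 3. Relative to GAPDH counts it was 2, with TEAD1 at least 2-fold higher. Shares of all genes at 2-fold were not computed for the alternatives, and scaling to HPRT1 counts shifts the median log2 fold change of all genes by -0.30. The counts under the alternatives are therefore not a result about the 10 genes.

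**Figure D1:**
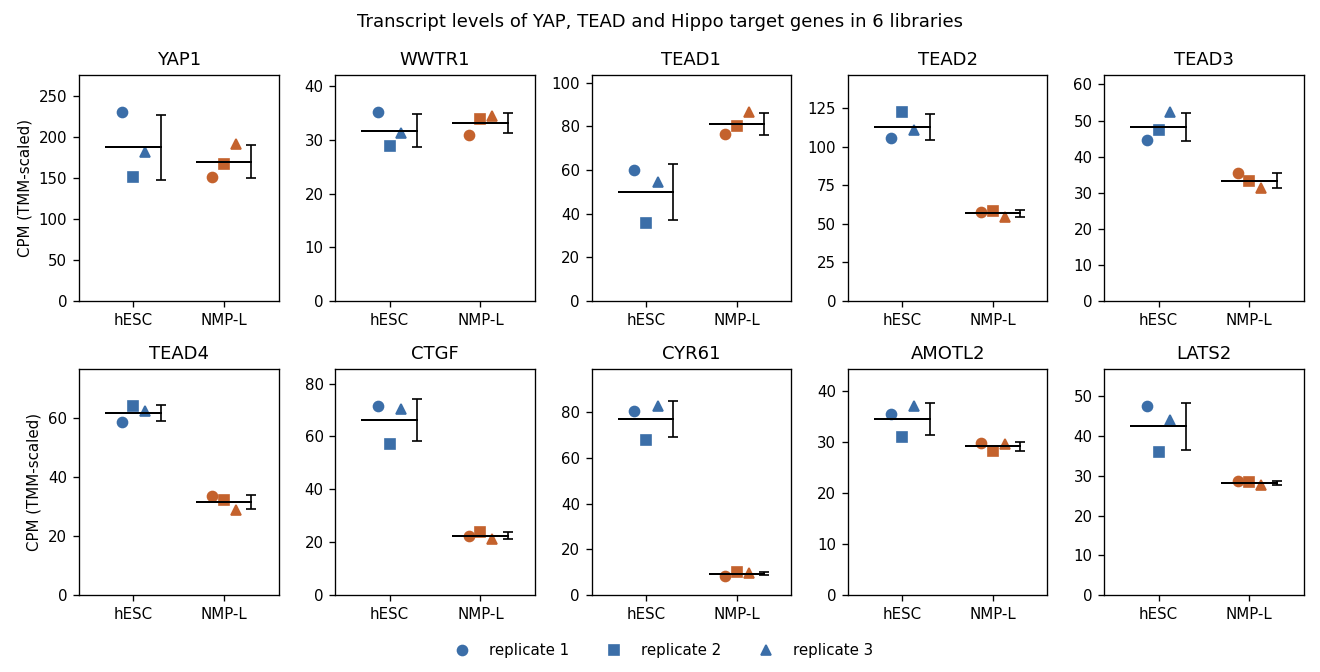
Transcript level of each gene (y axis, TMM-scaled CPM, starting at 0, with its own scale per panel) in the 3 hESC (blue) and 3 NMP-L (orange) libraries. Symbols stand for the replicate, horizontal lines for the mean of 3 libraries and bars for the SD. The groups overlap for YAP1 and WWTR1. All NMP-L points of TEAD1 lie above the hESC points, while for the other 7 genes they all lie below.

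The coactivator genes did not pass the test. YAP1, on chromosome 11 of GRCh37 from 101981178 to 102104155, had 230, 151 and 182 CPM in the hESC replicates 1, 2 and 3, and 151, 167 and 191 CPM in the NMP-L replicates. All NMP-L values lay inside the hESC range. The log2 fold change was -0.14 (standard error 0.14, 95% confidence interval -0.45 to 0.16, adjusted p = 0.39 from edgeR). WWTR1, on chromosome 3 from 149235022 to 149454501, had 35.1, 28.8 and 31.3 CPM in hESCs and 31.0, 33.9 and 34.5 CPM in NMP-L cells. Here too the NMP-L values lay wholly within the hESC range, with a log2 fold change of 0.06 (standard error 0.10, 95% confidence interval -0.16 to 0.29, adjusted p = 0.63 from edgeR). The intervals run from 0.734 to 1.115 times the hESC level for YAP1 and from 0.892 to 1.22 times for WWTR1, and a change within them is not excluded. Per transcript length, in TPM, YAP1 was the more abundant of the pair in every library. The ratio of YAP1 to WWTR1 in TPM was 6.42, 5.08 and 5.63 in hESCs and 4.70, 4.76 and 5.42 in NMP-L cells. These ratios overlapped between the groups and did not pass an exact permutation test of log2(TPM + 0.1), two-sided (p = 0.2, where 3 libraries against 3 allow no p under 0.1). Such a ratio within a library does not depend on how libraries are scaled.

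The TEAD genes encode the DNA-binding partners of YAP and TAZ, and 1 of the 4 rose while 3 fell. TEAD1 (chromosome 11, from 12695968 to 12966284) had 59.9, 35.5 and 54.7 CPM in hESCs and 76.4, 80.0 and 86.3 CPM in NMP-L cells. Every NMP-L library was above every hESC library, and hESC replicate 2 was by far the lowest of the 6. TEAD1 was 1.62-fold higher in NMP-L cells (log2 fold change 0.69, standard error 0.16, adjusted p = 0.0028 from edgeR). Without hESC replicate 2 the log2 fold change of TEAD1 was 0.49 (adjusted p = 0.0023 from edgeR), and over the 6 fits that left out 1 library it lay between 0.49 and 0.82.

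TEAD2 (chromosome 19, from 49843852 to 49865714), the TEAD gene with the most transcripts per length in both groups, had 106, 122 and 111 CPM in hESCs and 57.4, 58.6 and 54.4 CPM in NMP-L cells. The values of the groups were far apart, and the NMP-L level was 50.2% of the hESC level (log2 fold change -0.99, standard error 0.09, adjusted p = 2.1e-06 from edgeR). TEAD4, known for its part in trophectoderm formation, lies on chromosome 12 from 3068496 to 3149842. It had 58.7, 63.9 and 62.5 CPM in hESCs and 33.5, 32.1 and 28.8 CPM in NMP-L cells. Its NMP-L level was 51.0% of the hESC level, close to that of TEAD2 (log2 fold change -0.97, standard error 0.09, adjusted p = 4.8e-06 from edgeR). TEAD3 (chromosome 6, from 35441374 to 35464856) had 44.6, 47.5 and 52.2 CPM in hESCs and 35.4, 33.3 and 31.4 CPM in NMP-L cells. These groups did not overlap either, but the change was smaller, to 69.3% of the hESC level (log2 fold change -0.53, standard error 0.10, adjusted p = 6.8e-04 from edgeR).

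Summed over the family and per transcript length, TEAD transcripts were at 220, 232 and 233 TPM in hESCs and at 144, 142 and 142 TPM in NMP-L cells. The sums did not overlap (228 ± 7.39 against 143 ± 1.15 TPM, SD, n = 3 each), with a two-sided exact permutation p of 0.1, the smallest that the design allows. The make-up of the family also shifted. TEAD1 made up 5.92%, 3.20% and 5.02% of the TEAD transcripts in hESCs and 11.9%, 12.6% and 14.4% in NMP-L cells. TEAD2 made up 48.9% ± 1.96 in hESCs and 42.2% ± 0.522 in NMP-L cells, TEAD3 14.5% ± 0.866 and 17.2% ± 0.471, and TEAD4 31.9% ± 0.116 and 27.7% ± 1.121 (SD, n = 3 each). None of the 4 shares overlapped between the groups, with an exact permutation p of 0.1 for each, also after adjustment over the 4, again the smallest possible. The share of TEAD1 was thus larger in NMP-L cells than in hESCs in every pair of libraries, whereas TEAD2 stayed the largest part of the TPM in all 6. In CPM, which is not corrected for length, TEAD1 lay above TEAD2 in every NMP-L library. The sizes of these shifts rest on that correction. From TPM to CPM the difference in share, NMP-L minus hESC, went from 8.25 to 21.6 percentage points for TEAD1, from -6.72 to -13.4 for TEAD2, from -4.20 to -7.08 for TEAD4 and, with a change of sign, from 2.68 to -1.15 for TEAD3. The log2 difference of the summed level went from -0.68 to -0.43. Shares within a library do not depend on the scaling between libraries.

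**Figure D2:**
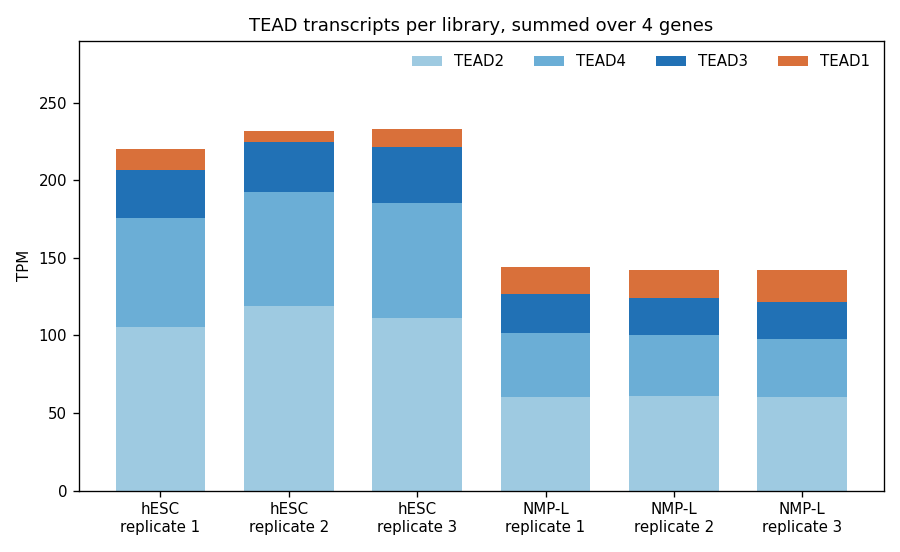
TEAD transcripts per library in TPM (y axis, starting at 0), stacked by gene, for the 3 hESC and 3 NMP-L libraries on the x axis. The stacks reach 220 to 233 TPM in hESCs and 142 to 144 TPM in NMP-L cells, and the orange TEAD1 segment is larger in NMP-L cells although the stack is lower.

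The secreted matricellular proteins CTGF and CYR61, the target genes most used as readouts of YAP and TAZ activity, showed the largest changes of the 10 under TMM, although relative to GAPDH counts the rise of TEAD1 (1.26) was larger than the fall of CTGF (-1.004). CYR61 (chromosome 1, from 86046444 to 86050272) had 80.5, 67.9 and 82.5 CPM in hESCs and 8.48, 9.96 and 9.48 CPM in NMP-L cells. All NMP-L values were far under the lowest hESC value, and the level fell 8.27-fold (log2 fold change -3.05, standard error 0.12, adjusted p = 3.3e-09 from edgeR). CTGF (chromosome 6, from 132269316 to 132272512), whose promoter with 3 TEAD cores is printed above, had 71.4, 57.2 and 70.4 CPM in hESCs and 22.5, 23.7 and 21.3 CPM in NMP-L cells. It fell 2.95-fold, with no overlap of the groups (log2 fold change -1.56, standard error 0.11, adjusted p = 3.7e-07 from edgeR). The pair did not fall equally. On the log2 scale of TPM + 0.1, the ratio of CYR61 to CTGF was 0.21, 0.28 and 0.26 in hESCs and -1.36, -1.21 and -1.13 in NMP-L cells. CYR61 was thus the more abundant per length in every hESC library and CTGF in every NMP-L library (two-sided exact permutation p = 0.1, the smallest possible). This comparison of ratios was chosen after the values had been seen.

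Of the feedback genes, LATS2 fell less and AMOTL2 did not pass the test. LATS2, which encodes a kinase that inhibits YAP and TAZ, lies on chromosome 13 from 21547175 to 21635725. It had 47.4, 35.9 and 43.99 CPM in hESCs and 28.7, 28.4 and 27.7 CPM in NMP-L cells, 3 values close together and all below the hESC libraries. LATS2 fell to 66.7% of the hESC level (log2 fold change -0.59, standard error 0.11, adjusted p = 9.0e-04 from edgeR). AMOTL2, an angiomotin that binds YAP at cell junctions, lies on chromosome 3 from 134074189 to 134094321. It had 35.6, 31.0 and 36.998 CPM in hESCs and 29.8, 28.2 and 29.6 CPM in NMP-L cells. These values did not overlap, yet the difference was small and did not pass the test (log2 fold change -0.24, standard error 0.10, 95% confidence interval -0.46 to -0.02, adjusted p = 0.057 from edgeR). Without hESC replicate 2, AMOTL2 did pass (log2 fold change -0.32, adjusted p = 0.024 from edgeR). Its adjusted p lay between 0.012 and 0.17 over all alternatives. In all, 8 of the 10 genes had no overlap between the groups, which 61.6% of all tested genes shared. The ratio of CTGF to AMOTL2, chosen after seeing the values, fell by 1.31 on the log2 scale of TPM + 0.1 and that of CYR61 to AMOTL2 by 2.79, each without overlap and with an exact permutation p of 0.1. CTGF, CYR61 and AMOTL2 thus changed by unequal amounts within libraries, whatever the scaling.

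Some of these directions depend on how libraries are scaled. Relative to GAPDH counts, which shifts the median log2 fold change of all genes by 0.56, TEAD3 (0.03) and AMOTL2 (0.32, adjusted p = 0.042 from edgeR) changed sign, and LATS2 was at -0.03 (adjusted p = 0.86). Of the 10 genes, 3 were called higher and 4 lower under this scaling, beside 64.6% and 9.2% of all genes (73.8% in either direction). WWTR1 was among those called higher (0.62, adjusted p = 0.0046), whereas YAP1 was at 0.42 (adjusted p = 0.087). Relative to HPRT1 counts, which shifts the median by -0.30, 8 of the 10 were called lower and 0 higher, beside 34.1% and 11.6% of all genes (45.7% in either direction). There TEAD1 no longer passed (0.40, adjusted p = 0.070) and YAP1 was called lower (-0.43, adjusted p = 0.044). GAPDH itself was lower in NMP-L cells under TMM (log2 fold change -0.55, adjusted p = 1.4e-04), and HPRT1 was at 0.28 (adjusted p = 0.069). CYR61, CTGF, TEAD2 and TEAD4 were called lower under TMM and all 16 alternatives, with log2 fold changes of -3.36 to -2.49, -1.86 to -1.004, -1.30 to -0.44 and -1.27 to -0.42.

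**Figure D3:**
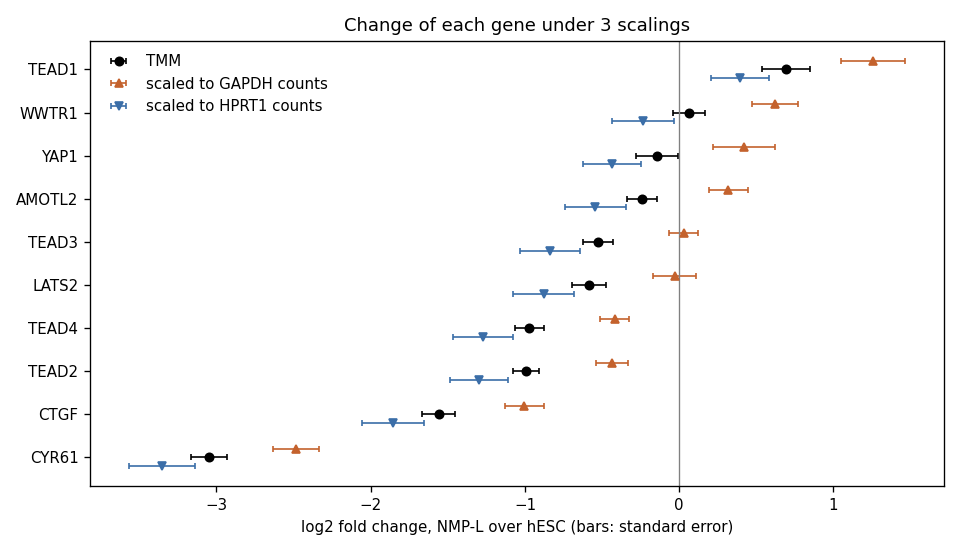
Log2 fold change of each gene in NMP-L cells over hESCs (x axis, with the standard error as bars) under TMM (black circles), relative to GAPDH counts (orange triangles) and relative to HPRT1 counts (blue triangles). The order of the genes is alike under the 3 scalings, and CYR61, CTGF, TEAD2 and TEAD4 lie left of 0 under each.

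The order of the levels per length, in mean TPM of 3 libraries, differed between the groups. In hESCs it ran from TEAD2 (112 ± 6.73 TPM) through TEAD4 (72.8 ± 2.10), YAP1 (72.8 ± 17.2), CYR61 (69.8 ± 8.36) and CTGF (58.8 ± 8.06) to TEAD3 (33.1 ± 2.60), LATS2 (15.5 ± 2.46), AMOTL2 (14.0 ± 1.502), WWTR1 (12.6 ± 1.49) and TEAD1 (10.7 ± 2.94). The ranges of neighbours from TEAD4 to CTGF overlapped, as did those from LATS2 to TEAD1, so that their order within these runs is not set. In NMP-L cells YAP1 came first (70.2 ± 11.2 TPM), ahead of TEAD2 (60.2 ± 0.335), TEAD4 (39.5 ± 1.84), TEAD3 (24.5 ± 0.869), CTGF (21.3 ± 0.613) and TEAD1 (18.5 ± 1.79). The last 4 were WWTR1 (14.1 ± 1.17), AMOTL2 (12.7 ± 0.690), LATS2 (11.1 ± 0.218) and CYR61 (9.03 ± 0.839). Of these neighbours, WWTR1 and AMOTL2 alone overlapped. YAP1 and TEAD2 nearly met, with 60.67 TPM as the lowest YAP1 and 60.63 TPM as the highest TEAD2 value, so that the first place of YAP1 is not firm. CYR61, inside the run from TEAD4 to CTGF in hESCs, thus had the lowest level of the 10 in NMP-L cells, and TEAD1, inside the lowest run in hESCs, lay above WWTR1 in NMP-L cells. Against the 15517 tested genes, CYR61 stood at percentile 85.7 in hESCs and 39.3 in NMP-L cells.

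Other genes of the pathway moved in both directions. Of 35 further Hippo genes (13 kinases and partners, 18 upstream regulators and the 4 VGLL cofactors of TEAD), 33 were tested, of which NMP-L cells had 10 at a higher and 11 at a lower level. This share lies near the 55.8% of all genes, and the balance depends on the scaling, with 21 higher and 4 lower relative to GAPDH counts (64.6% and 9.2% of all genes) and 4 higher and 14 lower relative to HPRT1 counts (11.6% and 34.1%). The genes named here passed the 2-fold threshold of the naming rule under TMM, and kept their direction and their call in all 16 alternatives. AMOT, which encodes the angiomotin that tethers YAP at junctions and is a paralogue of AMOTL2, had 19.1, 15.5 and 17.7 CPM in hESCs and 78.4, 79.9 and 84.0 CPM in NMP-L cells. It rose 4.63-fold (log2 fold change 2.21, standard error 0.10, adjusted p = 1.4e-08 from edgeR), whereas AMOTL2 did not pass the test. AMOTL1, a further angiomotin gene that was short of 2-fold and so outside the naming rule, rose 1.67-fold (adjusted p = 3.6e-05 from edgeR). The kinase gene STK3 rose 2.12-fold, from 14.6 ± 2.14 to 31.0 ± 2.05 CPM (SD, n = 3 each). The cofactor VGLL3, which competes with YAP for TEAD, rose 2.31-fold, from 9.25 ± 2.01 to 21.4 ± 2.77 CPM.

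Falls of at least 2-fold were found in the atypical cadherin FAT4 and its ligand DCHS1, in AJUBA, a LIM protein that inhibits LATS kinases, and in the kinase gene TNIK. FAT4 had 46.9, 32.4 and 39.8 CPM in hESCs and 6.15, 7.77 and 7.02 CPM in NMP-L cells, a 5.69-fold fall (adjusted p = 1.2e-07 from edgeR). DCHS1 fell 2.64-fold (from 22.2 ± 2.56 to 8.40 ± 0.564 CPM), TNIK 2.47-fold (from 38.8 ± 5.34 to 15.7 ± 1.06 CPM) and AJUBA 2.04-fold (from 40.7 ± 3.21 to 19.9 ± 1.01 CPM). LATS1, the paralogue of LATS2, did not pass the test (log2 fold change 0.22, standard error 0.15, adjusted p = 0.24 from edgeR).

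Of 18 further genes known as YAP and TAZ targets in other cells, 15 were tested and 9 differed, 3 higher and 6 lower. This share too lies near the 55.8% of all genes. The balance turns with the scaling. Scaling to GAPDH gave 7 at a higher and 3 at a lower level, beside 64.6% and 9.2% of all genes, whereas with HPRT1 the split was 2 to 8, beside 11.6% and 34.1%. The receptor tyrosine kinase gene AXL had 122, 113 and 124 CPM in hESCs and 24.6, 25.4 and 23.8 CPM in NMP-L cells, and fell 4.86-fold (adjusted p = 3.1e-09 from edgeR). CCDC80 fell 2.73-fold, from 12.4 ± 0.844 to 4.53 ± 0.170 CPM. In the other direction IGFBP3, which encodes a binding protein of insulin-like growth factors, rose 3.00-fold, from 14.2 ± 1.42 to 42.6 ± 3.84 CPM. The stress gene GADD45A rose 2.32-fold, from 7.54 ± 0.752 to 17.5 ± 1.03 CPM. The direction of these 4 genes was the same under all scalings tried. ANKRD1, another common readout of YAP and TAZ, had 0 to 6 counts per library and was too low to test.

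CTGF and CYR61 are also known targets of SRF and its actin-sensing cofactors, and both are early response genes. Of 10 SRF and actin genes, 8 were lower in NMP-L cells and 0 higher, beside 26.7% and 29.1% of all genes, with a median log2 fold change of -0.72 over the list against 0.03 over all genes. Relative to GAPDH counts 3 were lower and 2 higher, beside 9.2% and 64.6% of all genes. Relative to HPRT1 counts 8 were lower and 0 higher, beside 34.1% and 11.6%. CNN1, a calponin of contractile cells, had 27.1, 26.5 and 27.6 CPM in hESCs and 9.24, 8.01 and 7.14 CPM in NMP-L cells, a 3.33-fold fall (adjusted p = 3.6e-07 from edgeR). The myosin light chain gene MYL9 fell 2.41-fold, from 85.1 ± 6.71 to 35.3 ± 4.23 CPM, while SRF itself did not pass the test (log2 fold change -0.07, standard error 0.08, adjusted p = 0.49). Of 7 immediate early genes, 4 were lower and 0 higher under TMM, beside 26.7% and 29.1% of all genes. With GAPDH scaling 1 was lower and 3 higher, beside 9.2% and 64.6%. With HPRT1 scaling 4 were lower and 0 higher, beside 34.1% and 11.6%. The zinc finger gene EGR1 fell 2.62-fold, from 47.0 ± 3.05 to 17.9 ± 0.272 CPM. The part of SRF or of the early response in the levels of CTGF and CYR61 was not tested.

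**Figure D4:**
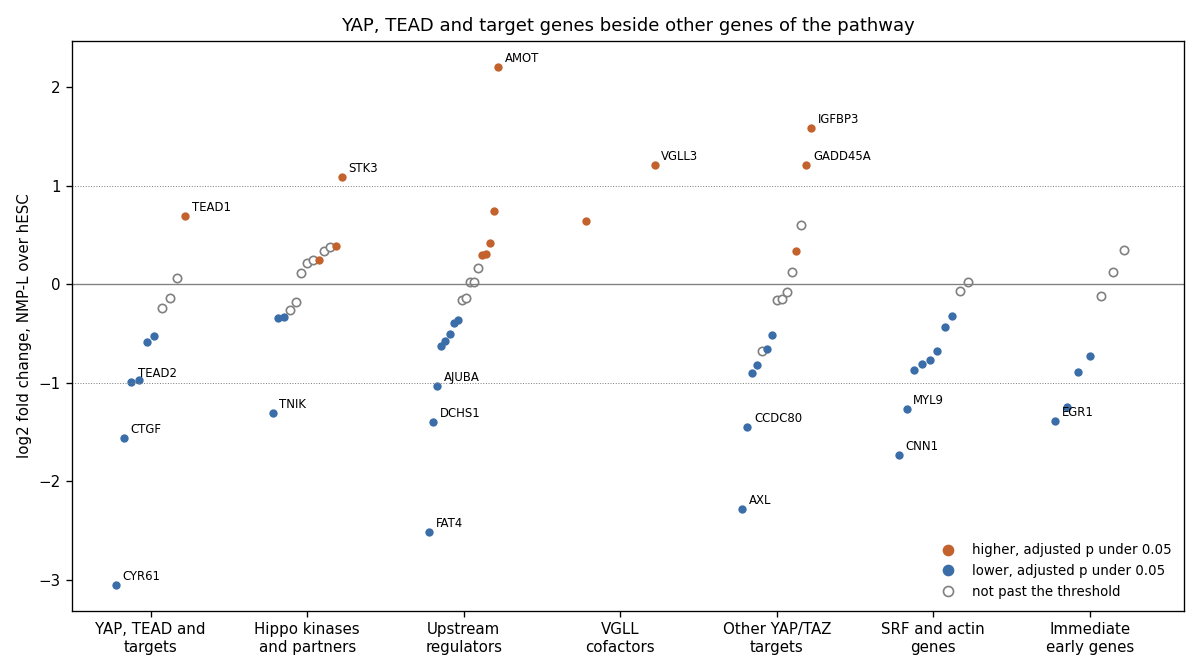
Log2 fold change in NMP-L cells over hESCs (y axis) of every tested gene, with 1 column for the 10 genes described here and 1 for each of 6 other lists. Filled points passed an adjusted p under 0.05 (orange higher, blue lower), open points did not, and dotted lines mark 2-fold. CYR61 lies lowest of the genes plotted and AMOT highest, and the SRF and immediate early columns hold no filled point above 0. PTPN14 is in both the upstream and the target list.

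Some genes on the marker lists of other cell types differed between the groups, while others did not pass the test or were too low to test. Of 9 fibroblast markers, 6 were tested, and 5 were lower and 0 higher in NMP-L cells, beside 26.7% and 29.1% of all genes. The summed level of the list was 1334 to 1501 CPM in hESCs and 217 to 232 CPM in NMP-L cells. COL1A1 (992 ± 82.4 to 81.5 ± 4.85 CPM), COL1A2 (233 ± 8.68 to 97.0 ± 4.17 CPM) and THY1 (208 ± 8.28 to 42.6 ± 2.98 CPM) made up most of this sum, and PDGFRA fell from 3.28 ± 0.394 to 1.13 ± 0.124 CPM. The defining fibroblast markers LUM and DCN were at or under 3 counts in all 6 libraries. Of 7 endothelial markers, 5 were tested, and KDR and TEK were lower and ERG higher, beside the same shares of all genes. Their summed level was 446 to 461 CPM in hESCs and 123 to 141 CPM in NMP-L cells. KDR (407 ± 9.43 to 106 ± 9.87 CPM) led this sum, with PECAM1 at a level too low to test. Of 7 trophoblast or amnion markers only KRT7 was tested, and it was higher (5.09 ± 0.291 to 12.0 ± 1.70 CPM). Summed hESC markers fell from 6500-6806 to 4602-4932 CPM, and summed NMP markers rose from 7.37-10.6 to 55.0-83.0 CPM, although TBX6 of that list was lower (5.66 ± 0.967 to 2.40 ± 0.160 CPM). The part of other cells in the levels of the 10 genes was not tested.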

How the data were processed

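RNA-seq of polyadenylated RNA (KAPA mRNA HyperPrep, single-end reads of 76 bp) was available for 6 libraries. The table deposited by the authors holds the expected counts of each gene from RSEM, not normalized between libraries. It also holds TPM values deposited by the authors, in which RSEM accounts for effective length. The submitters' processing notes name cutadapt 1.9.1, STAR 2.5.2a, RSEM 1.3.0, DESeq2 and hg19. The annotation and the use of strand are not given in the sources used here. All per-sample columns were used, and 0 of the 10 genes had a fractional expected count. Genes of the table whose exons overlap them (WWTR1-AS1, CD37 and LINC01013) held at most 0.544% of the counts of the gene they overlap.

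Rounded expected counts entered edgeR 4.0.16 in R 4.3.3 (filterByExpr with a minimum count of 10, TMM, glmQLFit and glmQLFTest), with Benjamini-Hochberg adjustment over all 15517 genes tested and a threshold of 0.05. Standard errors are the log2 fold change divided by the square root of F. Ratios and shares of TPM were compared by two-sided exact permutation tests. A pseudocount of 0.1 entered the log2 ratios and the log2 summed level, but not the shares. DESeq2 1.42.0 was an alternative. The detection floor of 3 counts per library equals 0.130 to 0.154 CPM and covers counting error only. On counts simulated for NMP-L against hESC libraries (15343 genes), edgeR recovered 86 of 100 genes changed 2-fold and 97 of 100 changed 4-fold, with 16 false calls among 199. Only 200 genes were changed there, whereas 55.8% of all genes were called in the data. The simulation therefore does not test the scaling at such a share. Effective length was taken from the ratio of counts to TPM. Python 3.11.15 and matplotlib 3.10.9 were used for tables and plots.

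The 10 genes and all lists were chosen with earlier results of these data known. Outside the 10 genes, the genes named are those past the threshold with at least 2-fold change and 1 CPM in the higher group, at most 4 per list and direction, with POU5F1, NANOG, T, CDX2, GAPDH and HPRT1 as checks. LATS1, AMOTL1, SRF, ANKRD1, FGF8, LUM, DCN, PECAM1 and PTPN14 are named outside this rule, with their values already known. Positions are from GENCODE 44 lifted to GRCh37, the build the submitters name as hg19, and promoters from RefSeq on GRCh38.p14, with no conversion between them.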

Additional observations from a re-analysis of the deposited data

How the results depend on the processing

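The alternatives were RLE, upper-quartile and library-size normalisation, scaling to GAPDH or HPRT1 counts, DESeq2's Wald test, stricter and looser filters, the replicate block, each library left out in turn and a length correction (each library adjusted for effective transcript length), which was chosen after seeing the data. The count of differing genes among the 10 was 7 or 8 in each, including 8 with the length correction and 7 with the replicate block. The genes behind this count changed with the scaling. With GAPDH as reference, TEAD3 and LATS2 dropped out while WWTR1 and AMOTL2 came in, leaving 3 genes up and 4 down. With HPRT1 as reference, TEAD1 dropped out while YAP1 and AMOTL2 came in, and all 8 went down. The share of all tested genes that was called was 73.8% and 45.7% there, against 55.8% under TMM. The steady count is therefore not a steady set of genes. Leaving out 1 library gave 7255 to 8891 genes in all, 16 to 22 further Hippo genes, 8 to 10 further targets and 10 to 12 SRF and early genes. Called genes were split as 52.1% higher under TMM, 87.5% relative to GAPDH and 25.3% relative to HPRT1 counts. Signs turned for YAP1 relative to GAPDH counts (0.42) and without hESC replicate 1 (0.0053), for WWTR1 relative to HPRT1 counts (-0.23), without hESC replicate 2 (-0.0063) and with the length correction (-6.1e-04), and relative to GAPDH counts for TEAD3 (0.029) and AMOTL2 (0.32). With 1 library left out, YAP1 ranged from -0.28 to 0.0053 and WWTR1 from -0.0063 to 0.11. In CPM the TEAD3 share differed by -1.15 percentage points in place of 2.68. AMOTL2 passed the threshold with RLE (-0.26), upper-quartile scaling (-0.27), HPRT1 (-0.54), the length correction (-0.30) and without hESC replicate 2, and in the opposite direction relative to GAPDH counts (adjusted p = 0.042 from edgeR). The cause was not tested. TEAD1 kept its rise after the length correction (0.63, adjusted p = 7.6e-04 from edgeR).

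The groups share replicate numbers, but the deviations of same-numbered libraries correlated at -0.37, -0.06 and -0.13, and no source states a pairing. With the replicate block 7560 genes were called in all and 16 further Hippo genes in place of 21, and the 7 calls among the 10 genes kept their direction. In pairs, the log2 ratio of YAP1 to WWTR1 changed by -0.20, and 3 pairs allow no p under 0.25.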

Other observations

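The deposited counts and TPM values together give the effective length that RSEM assigned to each gene, relative to the median gene of the library. For 9 of the 10 genes its mean differed between NMP-L cells and hESCs by less than 0.3%, and for TEAD2 it changed by -0.633%, with hESC values of 0.710, 0.705 and 0.698 and NMP-L values of 0.696, 0.703 and 0.700 that overlapped.

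Among the hESC libraries, replicate 2 differed from the mean of the other hESC libraries by -0.69 in log2 CPM for TEAD1, -0.44 for YAP1, -0.35 for LATS2, -0.31 for CTGF, -0.26 for CYR61, -0.23 for AMOTL2 and -0.20 for WWTR1, and by 0.17 for TEAD2 and 0.08 for TEAD4. The effective length of TEAD1 was 3.25 times that of the median gene in hESC replicate 1, against 0.78 times for CTGF and 0.71 times for TEAD2. In replicate 2, the 10% of genes with the largest effective length had a median deviation of -0.18 and the 10% with the smallest 0.12.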
